A study of Mus musculus with 28 samples.

Results

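The mRNAs described here encode proteins that make ribosomes in the nucleolus. The list names 48 such genes, chosen by symbol or Ensembl identifier, and 47 of them were found among the 30210 features of the deposited tables, Noc2l being the gene that was not. They were measured as RNA precipitated with the kinase PKR from mouse embryonic fibroblasts. PKR binds double-stranded RNA through its double-stranded RNA-binding motifs and, once active, phosphorylates the translation factor eIF2 alpha. The cells had been reconstituted with PKR carrying a mutation in each of these motifs (RM) or with wild-type PKR (WT). They received 0.1 mM palmitic acid, a saturated fatty acid, or a mock treatment. The groups are therefore RM palmitate, RM mock, WT palmitate and WT mock, each with 3 libraries in dataset A and 3 in dataset B, which the labels call biological replicates, and 1 library in dataset C. The labels do not say whether the replicates were separate cultures, so the p-values measure the spread between these libraries, which may be technical. RM and WT cells are separate reconstituted populations, and the mutation and any other difference between the populations cannot be told apart. The labels do not explain the 2hr tag that marks the columns of dataset B.

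Ribosome production starts when RNA polymerase I (Pol I) transcribes ribosomal DNA into a long precursor RNA. Guided by small nucleolar RNAs (snoRNAs) and acted on by helicases, GTPases and assembly factors, the precursor is folded, modified and cut, and the small and large ribosomal subunits form along separate routes. In growing fibroblasts the genes of this pathway are known to be transcribed together in response to growth signals. The 47 mRNAs fall into 5 of Pol I transcription and its regulators, 5 that encode abundant nucleolar proteins, 18 of small subunit assembly and 19 of large subunit assembly. Pprc1, a transcriptional coactivator that is not itself part of the Pol I machinery, is counted in the Pol I group.

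Library totals were 254762 to 8036622 counts in dataset A and 2204502 to 7122087 in dataset B. The 47 mRNAs took 0.0492% to 0.116% of all counts in dataset A and 0.254% to 0.490% in dataset B, where features of 200 bases or less took a smaller share (22.8% to 41.2%, against 48.2% to 60.8% in A). RM palmitate replicate 2 of dataset A, with the lowest total, held 219 counts of these mRNAs and none for 7 of them. In dataset B the RM palmitate libraries had the highest mitochondrial shares, 7.69% of counts in replicate 2, 10.96% in replicate 3 and 4.44% in replicate 1, against 0.882% to 3.36% in the other groups. Values without replicates 2 and 3 are given beside several of the results they touch, and not beside all of them. All 10 fibroblast markers were detected (summed 8426 to 12278 CPM, the usual depth-scaled read count, in dataset A and 14844 to 23037 CPM in B), while the marker lists of macrophages and lymphocytes, epithelium and endothelium each summed to at most 14.0 CPM in any library. No input or control precipitate was analysed here, so RNA abundance, binding to PKR and background cannot be told apart in any value below, nor can fewer cells and less RNA per cell.

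Per kilobase of counted exon, Npm1 had the highest level of the 47 mRNAs, at 216 CPM per kb in dataset B and 41.5 in dataset A. Npm1 encodes nucleophosmin, a nucleolar chaperone. Next in dataset B were Mybbp1a with 117, Ncl, which encodes nucleolin, with 73.1, Pprc1 with 36.1 and Wdr43 with 31.99 CPM per kb. In dataset A the next were Mybbp1a with 19.2, Wdr43 with 8.86, Gtpbp4 with 7.93 and Pprc1 with 7.89 CPM per kb. The lowest levels were 4.33 for Nle1, 3.69 for Rrs1 and 3.002 for Ddx51 in dataset B, and 1.11 for Rrp12, 1.07 for Nop16 and 0.678 for Rrs1 in dataset A. The mean count per library was 36.5 to 2970 over the mRNAs in dataset B, with a median of 178, and 6.33 to 421.5 in dataset A, with a median of 54.2. Rrs1 did not pass the filter on low counts in dataset A, which leaves 46 mRNAs tested there and 47 in dataset B.

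The summed level of the 47 mRNAs in RM cells of dataset A was 873 ± 102 CPM with palmitate and 618 ± 48.4 CPM with mock treatment (SD, n = 3). In WT cells of dataset A it was 1004 ± 208 CPM with palmitate and 723 ± 72.8 CPM with mock. Dataset B had 4315 ± 509 CPM in RM palmitate and 3967 ± 360 CPM in RM mock, and 4112 ± 63.9 CPM in WT palmitate and 3253 ± 155 CPM in WT mock. The palmitate libraries lay above all mock libraries in RM cells of dataset A and in WT cells of dataset B. The groups overlapped in RM cells of dataset B, and in WT cells of dataset A palmitate replicate 1 (789 CPM) lay below mock replicate 1 (796 CPM). As a share of all counts, without TMM scaling, the mRNAs took a mean of 0.358% in RM palmitate and 0.421% in RM mock of dataset B. RM palmitate replicates 1, 2 and 3 there had 0.490%, 0.331% and 0.254%, with TMM factors of 1.001, 0.820 and 0.637. The higher mean with palmitate in these cells therefore depends on the scaling. In RM cells of dataset A and in WT cells of both datasets the mean share was higher with palmitate.

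**Figure D1:**
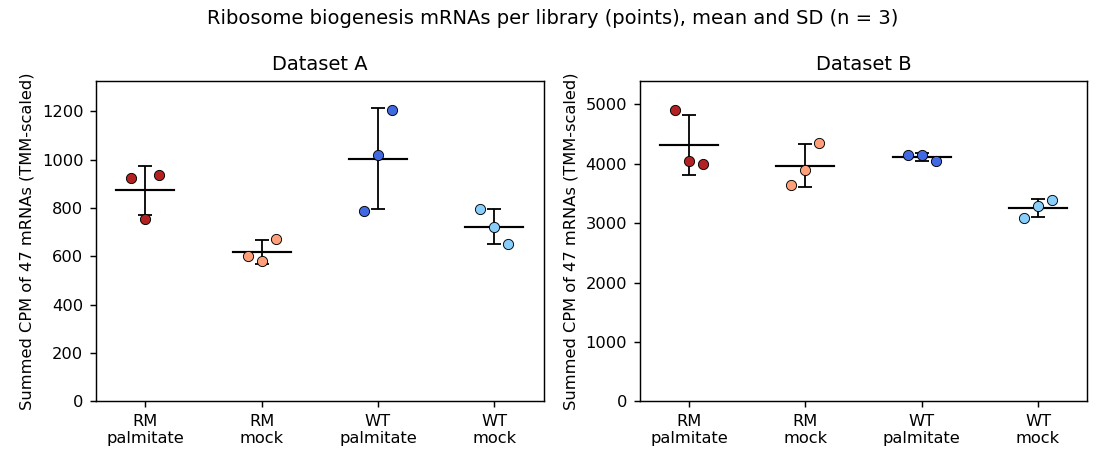
Summed level of the 47 ribosome biogenesis mRNAs in each library (CPM after TMM scaling), with the mean and SD of 3 libraries per group, for RM and WT cells with palmitate or mock treatment in datasets A and B. The group means with palmitate are 873 and 1004 CPM in dataset A and 4315 and 4112 CPM in dataset B for RM and WT cells, each above the mock mean of the same cells (618 and 723, 3967 and 3253 CPM). In RM cells of dataset B the mean share of all counts, without TMM scaling, is lower with palmitate (0.358%) than with mock (0.421%).

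Averaged over both genotypes and both datasets, 28 of 47 mRNAs rose with palmitate and 0 fell (edgeR quasi-likelihood test, Benjamini-Hochberg adjusted over all 12683 features). Of all features, 20.3% were called in this comparison, 10.9% as higher and 9.41% as lower. The members were chosen with earlier results of these data known, so these shares describe the list and are no test of it. The fitted value was positive for 47 of 47 mRNAs and for 48.0% of all features, and the median log2 fold change was 0.32 for the mRNAs against -0.01 for all features. Among the roles, 2 of 5 mRNAs of Pol I transcription and its regulators, 4 of 5 of the abundant nucleolar proteins, 11 of 19 of the large subunit and 11 of 18 of the small subunit rose. The 2 of the Pol I group were Polr1b and the coactivator Pprc1. Scaling by total counts gave 15 higher and 0 lower, with a median of 0.19 for the mRNAs against -0.14 for all features. The share of all features called with that scaling is not given here.

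In RM cells of dataset B 4 of 47 mRNAs rose with palmitate and 0 fell, where 7.53% of features were called (5.08% higher, 2.45% lower), with a median of 0.04 against -0.01 and 30 of 47 values positive. Without RM palmitate replicates 2 and 3, 2 mRNAs were called there, Pprc1 and Wdr43, and the median was 0.23. With scaling by total counts 1 mRNA, Pprc1, was higher and 2, Wdr12 and Noc4l, were lower, named after their values were seen, and the median turned to -0.29, against -0.38 for all features. In WT cells of dataset B 21 of 47 mRNAs rose with palmitate and 1 fell, where 15.5% of all features were called, 9.43% as higher and 6.12% as lower. The median was 0.39, against -0.05 for all features, and 43 of 47 values were positive. In dataset A 2 of 46 mRNAs rose and 0 fell in RM cells, where 0.477% of features were called (0.318% higher, 0.159% lower), and 3 rose and 0 fell in WT cells, where 0.335% were called (0.238% higher, 0.0971% lower). The medians in dataset A were 0.47 in RM and 0.43 in WT cells, against -0.04 and -0.03 for all features, with 45 and 43 of 46 values positive. The number called in RM cells of dataset A was 0 without RM mock replicate 1 or 2 or RM palmitate replicate 3, 6 without the shallow RM palmitate replicate 2, and 1 without RM mock replicate 3 or RM palmitate replicate 1. In WT cells of dataset A it was 0 without WT mock replicate 1, 2 or 3 or WT palmitate replicate 2. Leaving out WT palmitate replicate 1 gave 8, and leaving out its replicate 3 gave 2. For the refits in this paragraph the share of all features called is not given here. Their counts therefore show how the calls moved, not whether the mRNAs changed more than other features. The 4 palmitate comparisons share no library. Across them 26 mRNAs had positive values in all 4, 15 in 3 and 6 in 2, counting Rrs1, which was tested in dataset B only. The matching numbers over all features are not given here. In the authors' deposited table the numbers past a false discovery rate of 0.05 were 0 in RM cells and 9 higher in WT cells of dataset A, and 1 higher, Pprc1, in RM cells and 21 higher in WT cells of dataset B. Of the features tested here, 0.247% were past that rate as higher in the authors' deposited table in RM and 1.31% in WT cells of dataset A, and 4.56% in RM and 9.67% in WT cells of dataset B.

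**Figure D2:**
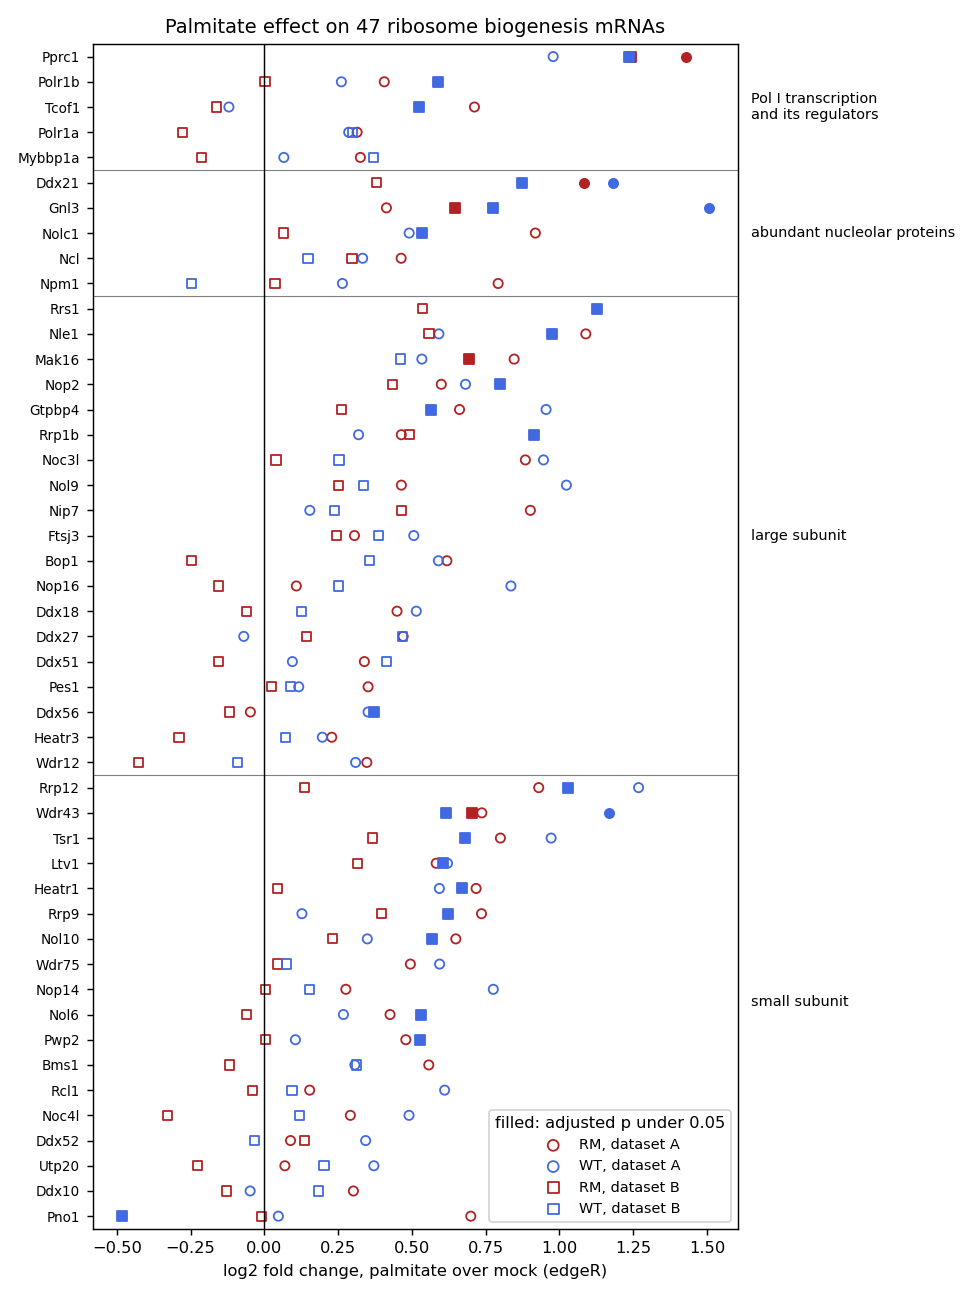
Log2 fold change of palmitate over mock (horizontal axis, edgeR) for each of the 47 mRNAs (vertical axis, grouped by role), with circles for dataset A, squares for dataset B, red for RM and blue for WT cells, and filled symbols where the adjusted p was under 0.05. Most symbols lie right of 0, Pprc1 lies at 0.98 or above in all 4 comparisons, and the red squares (RM cells of dataset B) lie furthest to the left in most rows.

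Pprc1 gave the smallest p of the 47 mRNAs over both datasets. It lies at chr19:46131029-46147405 (mm9, plus strand) and encodes PGC-1-related coactivator, a growth-regulated transcriptional coactivator that is not itself part of the Pol I machinery. In dataset B its level in replicates 1, 2 and 3 was 281, 276 and 358 CPM in RM palmitate, against 112, 129.6 and 146 CPM in RM mock. The WT libraries of dataset B had 252, 240.4 and 249 CPM with palmitate, against 104, 95.9 and 115 CPM with mock. In dataset A the levels were 73.6, 34.5 and 96.5 CPM in RM palmitate and 22.5, 26.5 and 34.4 CPM in RM mock, and 42.1, 49.4 and 59.3 CPM in WT palmitate and 27.6, 23.1 and 25.5 CPM in WT mock. Every palmitate library lay above every mock library of the same cells and dataset, by the smallest gap in RM cells of dataset A (34.5 against 34.4 CPM). The 34.5 CPM stands for 10 reads in the shallow palmitate replicate 2. The log2 fold change was 1.24 ± 0.13 in RM and 1.23 ± 0.13 in WT cells of dataset B (SE, adjusted p = 8.89e-05 and 5.1e-05 by edgeR), calls that held in all 12 alternatives tried for each. In dataset A it was 1.43 ± 0.26 in RM cells (adjusted p = 0.0125) and 0.98 ± 0.26 in WT cells (adjusted p = 0.119). The RM call in dataset A held in 7 of 11 alternatives (adjusted p = 1.15e-05 to 0.164) and ended without RM mock replicate 1 (0.139), RM mock replicate 2 (0.164) or RM palmitate replicate 3 (0.081), or with scaling by total counts (0.0628). Over both datasets it was 1.23 ± 0.11 (adjusted p = 2.84e-09), called in 30 of 30 alternatives.

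The other mRNAs of the Pol I group had smaller palmitate values. Polr1a, the largest catalytic subunit of Pol I, had 193, 141 and 138 CPM in RM palmitate and 185, 187 and 203 CPM in RM mock of dataset B, and 177.1, 176 and 183 CPM in WT palmitate and 123, 151 and 162 CPM in WT mock. The WT groups did not overlap. In RM cells palmitate replicate 1 lay within the mock range and replicates 2 and 3 lay below it. Its log2 fold change there was -0.28 ± 0.14 in RM cells and 0.30 ± 0.14 in WT cells (adjusted p = 0.207 and 0.15), so neither passed the threshold. Polr1b, the second-largest subunit, had 43.2, 39.9 and 39.6 CPM in WT palmitate against 25.3, 25.6 and 30.8 CPM in WT mock of dataset B, without overlap. That rise was 0.59 ± 0.12 (adjusted p = 0.00444), called in 11 of 12 alternatives and not with scaling by total counts (adjusted p = 0.068). In RM cells of dataset B Polr1b had 28.7, 31.0 and 30.9 CPM with palmitate and 32.5, 29.7 and 27.6 CPM with mock, overlapping, with a log2 fold change of 0.00 ± 0.13. Tcof1, which encodes treacle, a nucleolar cofactor of Pol I transcription, rose in WT cells of dataset B by 0.53 ± 0.16 (adjusted p = 0.035), with 61.9, 55.2 and 55.1 CPM in WT palmitate against 31.7, 39.6 and 48.7 CPM in WT mock. Over both datasets Polr1b rose by 0.33 ± 0.10 (adjusted p = 0.0266), while Tcof1 (0.25 ± 0.10, adjusted p = 0.0812) and Polr1a (0.16 ± 0.09, adjusted p = 0.218) did not pass the threshold.

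Among the abundant nucleolar proteins, Gnl3 and Ddx21 each passed the threshold in 3 of the 4 separate palmitate comparisons, as Pprc1 and Wdr43 did. Of the other mRNAs 19 passed in 1 comparison, 18 of them as higher and Pno1 as lower, and 24 in none. The numbers of all features that passed in 3, 1 or 0 of these comparisons are not given here. Gnl3 encodes nucleostemin, a nucleolar GTP-binding protein of proliferating cells (chr14:31825620-31832275, mm9, minus strand). It had 34.7, 37.1 and 36.1 CPM in RM palmitate and 23.0, 24.3 and 21.2 CPM in RM mock, and 31.8, 33.6 and 37.8 CPM in WT palmitate and 21.2, 20.1 and 18.9 CPM in WT mock of dataset B. In dataset A Gnl3 had 10.1, 14.1 and 15.4 CPM in WT palmitate against 5.52, 4.63 and 3.42 CPM in WT mock. These 3 comparisons had no overlap between groups. The log2 fold changes were 0.65 ± 0.13 in RM cells of dataset B (adjusted p = 0.00947), 0.78 ± 0.12 in WT cells of dataset B (adjusted p = 0.000694) and 1.51 ± 0.29 in WT cells of dataset A (adjusted p = 0.0223). The RM call of dataset B ended without RM palmitate replicates 2 and 3 together (adjusted p = 0.253) and with scaling by total counts (0.287, range over the alternatives 0.00394 to 0.287). RM cells of dataset A had 7.99, 0 and 8.70 CPM with palmitate and 5.77, 5.50 and 6.67 CPM with mock, the 0 being in the shallow library, and the value there, 0.41, did not pass the threshold.

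Ddx21 encodes a nucleolar RNA helicase (chr10:62042996-62065046, mm9, minus strand). Its level in dataset A was 27.9, 10.3 and 24.3 CPM in RM palmitate against 12.5, 9.99 and 12.5 CPM in RM mock, and 17.2, 25.7 and 27.4 CPM in WT palmitate against 12.4, 9.95 and 8.09 CPM in WT mock. In RM cells the shallow palmitate library lay within the mock range, and in WT cells the groups did not overlap. Ddx21 rose by 1.08 ± 0.23 in RM and 1.18 ± 0.24 in WT cells of dataset A (adjusted p = 0.0425 and 0.0356). It also rose by 0.87 ± 0.17 in WT cells of dataset B (adjusted p = 0.00327), with 147, 134 and 133 CPM in WT palmitate against 60.7, 79.2 and 86.1 CPM in WT mock. In RM cells of dataset B the groups overlapped, with 161, 129.7 and 94.4 CPM with palmitate and 89.4, 97.5 and 112 CPM with mock (0.38 ± 0.17, adjusted p = 0.165). The calls of Gnl3 and Ddx21 in WT cells of dataset A ended without any WT mock library or without WT palmitate replicate 2 (adjusted p = 0.0583 to 0.163 for Gnl3 and 0.0651 to 0.222 for Ddx21). Both calls also ended with scaling by total counts (adjusted p = 0.219 for Gnl3 and 0.331 for Ddx21, the highest of their alternatives, the lowest being 5.1e-05 and 0.000506). Ddx21 was also not called there without WT palmitate replicate 3 (adjusted p = 0.0511) or with the replicate block (0.0589). In RM cells of dataset A Ddx21 was called in 4 of 11 alternatives (adjusted p = 0.000437 to 0.285) and ended without any RM mock library or without RM palmitate replicate 1 or 3 (0.0778 to 0.285), with scaling by total counts (0.253) and with the replicate block (0.0759). Over both datasets Gnl3 rose by 0.85 ± 0.10 (adjusted p = 1.23e-06) and Ddx21 by 0.89 ± 0.11 (adjusted p = 1.42e-06), each in 30 of 30 alternatives.

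Nucleolin and nucleophosmin mRNAs did not pass the threshold in any of the 4 separate palmitate comparisons. Ncl had 796, 657 and 739 CPM in RM palmitate against 507, 589.5 and 688 CPM in RM mock of dataset B, and 567, 612 and 537 CPM in WT palmitate against 485, 510.3 and 554 CPM in WT mock, overlapping in both. Its palmitate values were 0.15 to 0.46 over the 4 comparisons, none past the threshold (adjusted p = 0.213 to 0.568), and over both datasets it rose by 0.32 ± 0.09 (adjusted p = 0.0152). Npm1 had 582.2, 436 and 479 CPM in RM palmitate against 394, 505 and 562 CPM in RM mock, and 344, 352 and 356 CPM in WT palmitate against 485, 401 and 362 CPM in WT mock of dataset B. The WT palmitate libraries all lay below the WT mock libraries, while the RM groups overlapped. Its value was 0.04 in RM and -0.25 in WT cells of dataset B, 0.79 in RM and 0.26 in WT cells of dataset A, and 0.21 ± 0.11 over both datasets (adjusted p = 0.191), none past the threshold.

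Of the small subunit mRNAs, Wdr43 passed the threshold in 3 comparisons. It encodes a WD-repeat protein that joins the precursor RNA early, with the small subunit processome (chr17:71965555-72008371, mm9, plus strand). In dataset B it had 172, 136 and 161 CPM in RM palmitate against 83.1, 100.3 and 106 CPM in RM mock, and 112, 111 and 119 CPM in WT palmitate against 78.8, 77.2 and 67.4 CPM in WT mock. In dataset A it had 45.7, 27.6 and 39.5 CPM in RM palmitate against 25.7, 21.3 and 25.9 CPM in RM mock, and 29.3, 47.9 and 48.4 CPM in WT palmitate against 17.1, 19.7 and 18.7 CPM in WT mock. All palmitate libraries lay above the mock libraries in each comparison, the shallow RM palmitate library of dataset A on 8 reads. The log2 fold changes were 0.70 ± 0.12 in RM and 0.62 ± 0.12 in WT cells of dataset B (adjusted p = 0.00614 and 0.00388). In dataset A they were 0.74 ± 0.22 in RM cells (adjusted p = 0.144) and 1.17 ± 0.22 in WT cells (adjusted p = 0.0223). The last call ended without any WT mock library or WT palmitate replicate 2 (adjusted p = 0.103 to 0.14). With scaling by total counts Wdr43 was not called in WT cells of dataset A (adjusted p = 0.327), WT cells of dataset B (0.0913) or RM cells of dataset B (0.235). Over both datasets its rise was 0.81 ± 0.09 (adjusted p = 2.18e-07), in 30 of 30 alternatives.

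**Figure D3:**
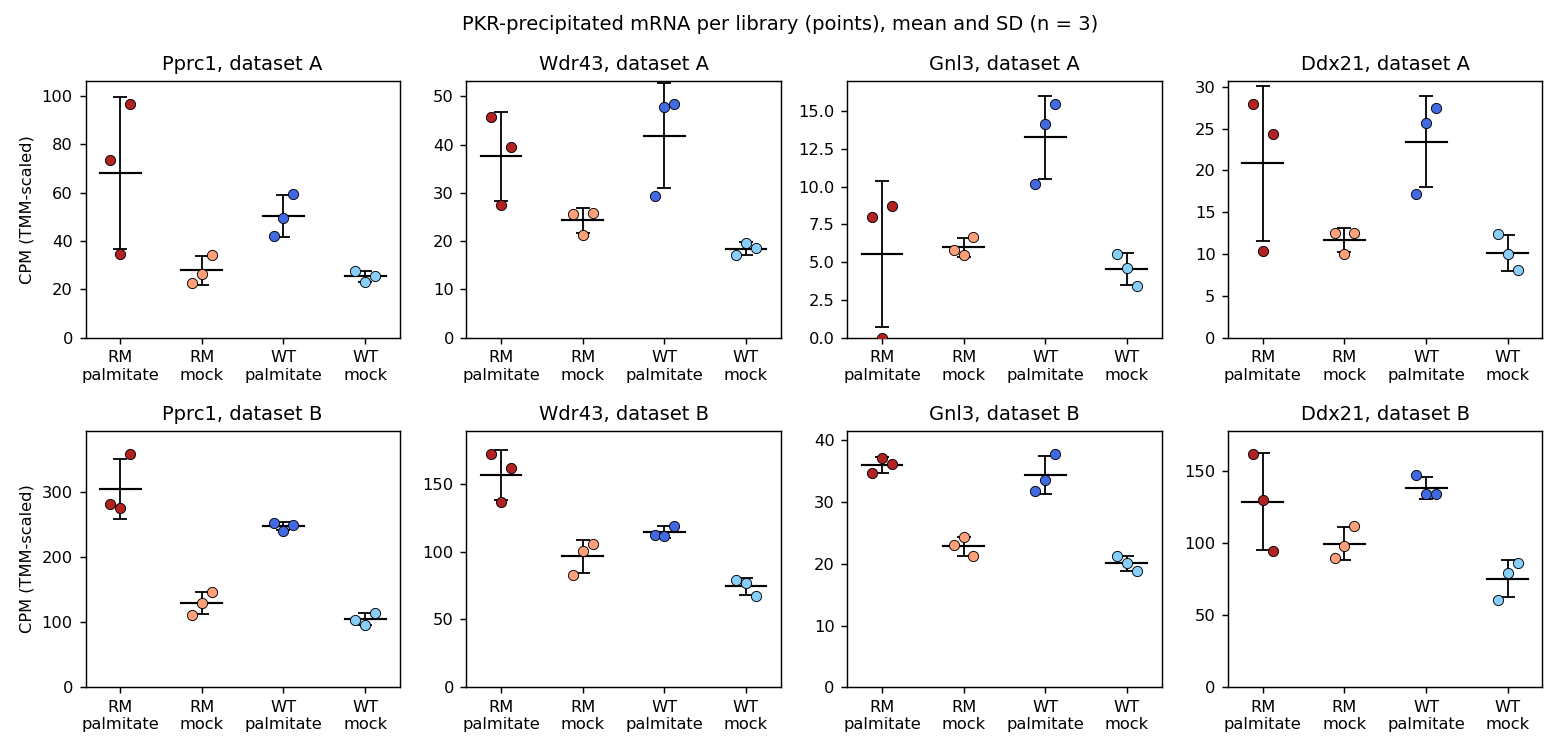
Level of Pprc1, Wdr43, Gnl3 and Ddx21, the mRNAs called in 3 of the 4 palmitate comparisons, in each library of datasets A (upper row) and B (lower row), in CPM after TMM scaling, with the mean and SD of 3 libraries. Pprc1 averages 305 and 247 CPM in RM and WT palmitate of dataset B, against 129 and 105 CPM in the matching mock groups, and the single Gnl3 point at 0 is the shallow RM palmitate library of dataset A.

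Rrp12 and Tsr1 were the other small subunit mRNAs with the smallest p over both datasets. Rrp12, a factor of nuclear export and precursor processing, had 42.7, 31.8 and 35.3 CPM in WT palmitate against 15.8, 20.1 and 18.1 CPM in WT mock of dataset B (1.03 ± 0.14, adjusted p = 0.000317, called in 12 of 12 alternatives). In RM cells of dataset B its palmitate and mock levels were close, at 35.3, 29.9 and 29.7 CPM and 27.4, 29.6 and 30.4 CPM. Over both datasets it rose by 0.85 ± 0.11 (adjusted p = 3.17e-06). Tsr1, which encodes a GTPase-like factor of late small subunit maturation, had 113, 83.7 and 95.0 CPM in RM palmitate and 71.4, 76.4 and 80.0 CPM in RM mock, and 110.4, 93.0 and 92.2 CPM in WT palmitate and 50.1, 65.6 and 69.1 CPM in WT mock of dataset B. The groups did not overlap in these or in the dataset A comparisons, where the shallow RM palmitate library held 5 reads of Tsr1. Over both datasets Tsr1 rose by 0.71 ± 0.09 (adjusted p = 2.49e-06). Pno1, a small subunit assembly factor that binds the end of the maturing RNA, was the mRNA that fell in WT cells of dataset B, with 11.996, 12.8 and 10.5 CPM in WT palmitate against 14.7, 17.1 and 17.4 CPM in WT mock. Its value was -0.48 ± 0.16 (adjusted p = 0.0448), a call that held in 2 of 12 alternatives (0.0381 to 0.179) and ended without WT mock replicate 2 or 3 or any WT palmitate library (0.0789 to 0.179).

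Large subunit mRNAs gave 6 of the 21 rises in WT cells of dataset B and 1 of the 4 in RM cells. Nop2, a methyltransferase of the large ribosomal RNA, had 55.9, 59.3 and 52.5 CPM in RM palmitate and 43.5, 38.2 and 42.5 CPM in RM mock, and 62.7, 62.0 and 59.1 CPM in WT palmitate and 28.6, 37.6 and 39.6 CPM in WT mock of dataset B. Its groups did not overlap in any of the 4 comparisons, the shallow RM palmitate library of dataset A holding 5 reads of it. The values were 0.44 ± 0.13 in RM cells (adjusted p = 0.0536) and 0.80 ± 0.13 in WT cells of dataset B (adjusted p = 0.000901, 12 of 12 alternatives), and 0.64 ± 0.09 over both datasets (adjusted p = 1.13e-05). Rrs1, a factor that brings the 5S ribonucleoprotein into the large subunit, had 13.3, 11.98 and 9.52 CPM in WT palmitate against 3.86, 6.09 and 6.02 CPM in WT mock of dataset B, a rise of 1.13 ± 0.22 (adjusted p = 0.00362, 12 of 12 alternatives). Gtpbp4, a GTPase of the early large subunit precursor, rose by 0.62 ± 0.10 over both datasets (adjusted p = 7.14e-05, 30 of 30 alternatives). Mak16, a large subunit factor known from yeast, was the remaining call in RM cells of dataset B (0.69 ± 0.17, adjusted p = 0.0271). That call ended without RM mock replicate 1 (0.113) or 2 (0.0906) or RM palmitate replicate 2 (0.116) or 3 (0.0769), held in 6 of 12 alternatives and had an adjusted p of 0.554 without both of those palmitate libraries, the range being 0.00533 to 0.554.

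The 4 mRNAs whose palmitate and mock libraries did not overlap in any of the 4 comparisons were Pprc1, Wdr43, Nop2 and Tsr1, of 46 tested in both datasets. Beside them, 62 of 11117 features (0.558%) had palmitate above mock in all 4. In RM cells of dataset A this rests in part on the shallow palmitate replicate 2, which held 10, 8, 5 and 5 reads of these mRNAs. Promoter windows of the 4 mRNAs are shown here to set that shared behaviour beside the sequence. Each window runs from 250 bases before to 50 bases after the annotated start (RefSeq, build GRCm38.p6, a later build than the mm9 of the counts), and capitals mark CACGTG, the E-box that transcription factors of the Myc family are known to bind, which reads the same on both strands.
Pprc1, chr19:46056289-46056588, plus strand: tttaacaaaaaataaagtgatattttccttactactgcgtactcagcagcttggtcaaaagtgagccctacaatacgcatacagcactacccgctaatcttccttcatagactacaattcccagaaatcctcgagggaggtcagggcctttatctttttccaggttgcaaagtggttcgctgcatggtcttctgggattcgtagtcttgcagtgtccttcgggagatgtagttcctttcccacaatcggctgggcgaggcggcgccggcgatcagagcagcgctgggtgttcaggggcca
Wdr43, chr17:71615965-71616264, plus strand: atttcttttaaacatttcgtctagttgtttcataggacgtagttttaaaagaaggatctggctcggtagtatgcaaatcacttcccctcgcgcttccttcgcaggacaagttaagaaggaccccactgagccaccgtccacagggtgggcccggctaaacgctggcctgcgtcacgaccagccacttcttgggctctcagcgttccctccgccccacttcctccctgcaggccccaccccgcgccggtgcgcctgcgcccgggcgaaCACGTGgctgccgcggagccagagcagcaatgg
Nop2, chr6:125131633-125131932, plus strand: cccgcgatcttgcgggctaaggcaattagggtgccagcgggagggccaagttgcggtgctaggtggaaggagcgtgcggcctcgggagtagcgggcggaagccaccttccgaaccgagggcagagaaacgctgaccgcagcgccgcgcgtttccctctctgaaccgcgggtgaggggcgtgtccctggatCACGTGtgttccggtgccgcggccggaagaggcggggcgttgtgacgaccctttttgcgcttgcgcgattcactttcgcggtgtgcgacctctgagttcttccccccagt
Tsr1, chr11:74897830-74898129, plus strand: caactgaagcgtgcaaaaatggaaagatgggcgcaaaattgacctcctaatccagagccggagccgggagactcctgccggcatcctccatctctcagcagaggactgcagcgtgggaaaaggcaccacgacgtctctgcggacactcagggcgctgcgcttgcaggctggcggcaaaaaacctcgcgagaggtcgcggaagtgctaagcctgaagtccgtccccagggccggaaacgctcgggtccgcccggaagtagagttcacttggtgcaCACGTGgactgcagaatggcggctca
The motif begins 17 bases after the start in Wdr43, 24 bases after it in Tsr1 and 60 bases before it in Nop2, and these letters are not in the Pprc1 window. A promoter window was matched for 40 of the 47 mRNAs. The motif occurred in 9 of these 40 genes (22.5%), in 16 of 81 other ribosome biogenesis genes (19.8%) and in 2187 of 27025 genes in all (8.09%). The 27025 genes were not matched to the mRNAs for expression or base content, so the shares are no test of enrichment. Gnl3 and Ddx21 were among those without it. A match describes the letters and is not a measure of binding.

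Several of the mRNAs share their locus with other counted features. The snoRNAs Snord69, Snord19 and Gm24916 lie within the span of Gnl3, Snord53, Snord92 and Gm22858 within that of Wdr43, Snord82, Snora75 and Gm24148 within that of Ncl, and Snord91a and Gm22771 within that of Tsr1, all on the strand of the host. Whether strand was used in counting datasets A and B is not stated. In dataset A the mean count of Snord19 was 4237, against 38.7 for its host Gnl3, so the reads of the snoRNA were not counted in full within the host. The palmitate value of Snord19 in WT cells was 1.14 ± 0.26 in dataset B (adjusted p = 0.0142) and 0.28 ± 0.46 in dataset A (adjusted p = 0.863), beside 0.78 and 1.51 for Gnl3. In RM cells of dataset A Snord19 had -0.99 ± 0.47 (adjusted p = 0.367). Snord92 had 1.504 ± 0.23 in WT cells of dataset B (adjusted p = 0.00178) and -0.36 ± 0.23 in RM cells (adjusted p = 0.336), beside 0.62 and 0.70 for its host Wdr43. On the opposite strand, Bop1 overlaps Mroh1 (mean counts 324.6 and 461.6 in dataset B), Rrp9 overlaps Parp3 (79.3 and 257.7), Gnl3 overlaps Glt8d1 (137.5 and 35.4), Tsr1 overlaps Srr (413.8 and 28.8), Pno1 overlaps Wdr92 (69.7 and 78.3), Mak16 overlaps Tti2 (95.1 and 34.2) and Wdr12 overlaps Carf (105.3 and 13.4), and reads of these pairs may be shared. These counts are of whole features, and the shared stretch can be short. The span of Gnl3 runs from 31825620 and that of Glt8d1 up to 31825627. The span of Bop1 runs from 76283426 and that of Mroh1 up to 76283468. On its own strand Rcl1 overlaps Mir101b in dataset A (mean counts 26.9 and 18.7). Scx, within the span of Bop1, and the features that overlap Pes1, Polr1a, Nle1, Mybbp1a and Nol10 had mean counts under 5 in either dataset.

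Between the genotypes some of the mRNAs were higher and others lower. Averaged over both treatments and datasets, 4 were higher and 8 lower in RM than in WT cells, where 25.5% of all features were called, 13.1% as higher and 12.4% as lower, so the share of the mRNAs called was close to that of all features. The median was -0.09, against 0.01 for all features. Higher were Tcof1 (0.49 ± 0.10, adjusted p = 0.000918), Npm1 (0.39 ± 0.11, adjusted p = 0.0126), Pprc1 (0.33 ± 0.10, adjusted p = 0.0214) and Wdr43 (0.30 ± 0.09, adjusted p = 0.0121). The call of Pprc1 ended without RM mock replicate 3 or RM palmitate replicate 3 of dataset A (adjusted p = 0.0517 and 0.0657) and without RM palmitate replicates 2 and 3 of dataset B (0.0607, range 0.000849 to 0.0736). Lower were Heatr3 (-0.71 ± 0.10, adjusted p = 1.26e-05), Nol10 (-0.65 ± 0.11, adjusted p = 0.000139), Rcl1 (-0.55 ± 0.12), Ddx18 (-0.48 ± 0.12), Pwp2 (-0.47 ± 0.10), Nop14 (-0.43 ± 0.10), Wdr75 (-0.34 ± 0.10) and Ddx10 (-0.31 ± 0.11), the last being called in 18 of 30 alternatives (adjusted p = 0.0191 to 0.135) and lost without any of 10 libraries in turn. Without RM palmitate replicates 2 and 3 of dataset B the calls of Wdr75 and Ddx10 ended (adjusted p = 0.0958 and 0.0932). With scaling by total counts those of Wdr43, Pprc1, Nop14, Ddx18, Wdr75 and Ddx10 ended (0.0774, 0.0736, 0.0526, 0.0553, 0.118 and 0.135, each the highest of its alternatives).

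In dataset A 3 mRNAs were lower and 0 higher in RM than in WT cells under mock treatment, where 3.74% of features were called (0.715% higher, 3.03% lower). Under palmitate 3 were lower and 1 higher, where 3.43% were called (0.936% higher, 2.49% lower). Nol10, a small subunit processome protein (yeast Enp2; chr12:17355285-17437381, mm9, plus strand), had 9.57, 7.68 and 6.97 CPM in RM mock against 29.0, 20.1 and 21.8 CPM in WT mock. That is a difference of -1.55 ± 0.28 (adjusted p = 0.00257) without overlap, called in 11 of 11 alternatives. Under palmitate Nol10 had 11.9, 27.6 and 11.5 CPM in RM and 17.8, 34.8 and 39.1 CPM in WT cells, the high RM value being that of the shallow library (-1.25 ± 0.30, adjusted p = 0.0245). This call held in 5 of 11 alternatives (9.77e-05 to 0.165) and ended without WT palmitate replicate 2 or 3 or RM palmitate replicate 1 or 3 (0.0615 to 0.141). Heatr3, known in yeast as Syo1, an adaptor that carries ribosomal proteins of the 5S particle, had 13.5, 11.3 and 15.3 CPM in RM mock against 33.1, 28.5 and 25.2 CPM in WT mock, and 18.2, 13.8 and 13.4 CPM in RM palmitate against 20.5, 38.3 and 42.2 CPM in WT palmitate. Without overlap in either, it was lower by -1.12 ± 0.24 with mock (adjusted p = 0.00986) and -1.08 ± 0.26 with palmitate (adjusted p = 0.0227). The mock call ended without WT mock replicate 1 (adjusted p = 0.0737) or RM mock replicate 2 (0.0847), and the palmitate call without WT palmitate replicate 2 or 3 or RM palmitate replicate 3 (0.0709 to 0.14). With scaling by total counts neither was called (0.134 and 0.197, the highest of the alternatives, the lowest being 0.000255 and 0.000363).

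Nop14, a further small subunit processome protein, had 15.3, 6.90 and 15.3 CPM in RM palmitate against 20.5, 35.7 and 46.0 CPM in WT palmitate of dataset A (-1.18 ± 0.26, adjusted p = 0.0135). Pwp2, a subunit of the UtpB complex, had 6.53, 7.10 and 7.56 CPM in RM mock against 18.5, 14.6 and 10.9 CPM in WT mock (-1.06 ± 0.24, adjusted p = 0.0156). Neither pair of groups overlapped. The Nop14 call ended without WT palmitate replicate 2 (0.058) or RM palmitate replicate 1 (0.0666, range over the alternatives 0.000151 to 0.138). The Pwp2 call ended without WT mock replicate 1 or 2 or RM mock replicate 1 or 2 (0.0705 to 0.14, range over the alternatives 0.00149 to 0.192). Tcof1 had 18.8, 6.90 and 14.1 CPM in RM palmitate against 8.51, 6.75 and 10.6 CPM in WT palmitate, overlapping through the shallow library (0.90 ± 0.24, adjusted p = 0.0405, held in 6 of 11 alternatives, ended without WT palmitate replicate 2 or RM palmitate replicate 1 or 3 with 0.0681 to 0.282). With scaling by total counts the calls of Nop14 (0.138), Pwp2 (0.192) and, under palmitate, Nol10 (0.165) ended too, and that of Tcof1 ended with DESeq2 (0.0815) and the replicate block (0.0637).

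In dataset B 5 mRNAs were higher and 0 lower in RM than in WT cells under mock treatment, where 14.1% of features were called (7.88% higher, 6.24% lower), with a median of 0.21 against -0.02. Tcof1 had 66.0, 61.9 and 85.4 CPM in RM mock against 31.7, 39.6 and 48.7 CPM in WT mock, a difference of 0.83 ± 0.16 (adjusted p = 0.00347). Rrp12 had 27.4, 29.6 and 30.4 CPM in RM mock against 15.8, 20.1 and 18.1 CPM in WT mock, 0.69 ± 0.14 (adjusted p = 0.00467). The groups did not overlap for either, and both were called in 12 of 12 alternatives. Heatr1, a subunit of the UtpA complex (0.54 ± 0.16, adjusted p = 0.0352), Mybbp1a, a Myb-binding nucleolar protein (0.52 ± 0.16, adjusted p = 0.0367), and Nol6, a small subunit processome protein (0.40 ± 0.13, adjusted p = 0.0443), were called in 5, 6 and 6 of 12 alternatives. The Heatr1 call ended without any mock library of either genotype (adjusted p = 0.0546 to 0.117), that of Mybbp1a without WT mock replicate 1 or 2 or any RM mock library (0.0637 to 0.157) and that of Nol6 without WT mock replicate 1 or 2 or RM mock replicate 2 or 3 (0.0766 to 0.206). All 3 calls ended with scaling by total counts (0.259, 0.309 and 0.335), and the alternatives of the 3 ranged over 0.00124 to 0.335. Under palmitate Wdr43 was higher (0.46 ± 0.12, adjusted p = 0.0362) and Heatr3 (-0.52 ± 0.14, adjusted p = 0.0387) and Polr1b (-0.44 ± 0.13, adjusted p = 0.0463) lower in RM cells, where 7.81% of features were called (4.2% higher, 3.62% lower). None of these 3 was called without RM palmitate replicates 2 and 3 (adjusted p = 0.13, 0.574 and 0.323), nor without RM palmitate replicate 2 or 3 alone (0.0522 to 0.148), nor without WT palmitate replicate 1 or 2 (0.0952 to 0.158). Wdr43 and Polr1b were also not called without WT palmitate replicate 3 (0.0729 and 0.0799), nor Polr1b without RM palmitate replicate 1 (0.0674), their alternatives ranging over 0.00504 to 0.783.

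**Figure D4:**
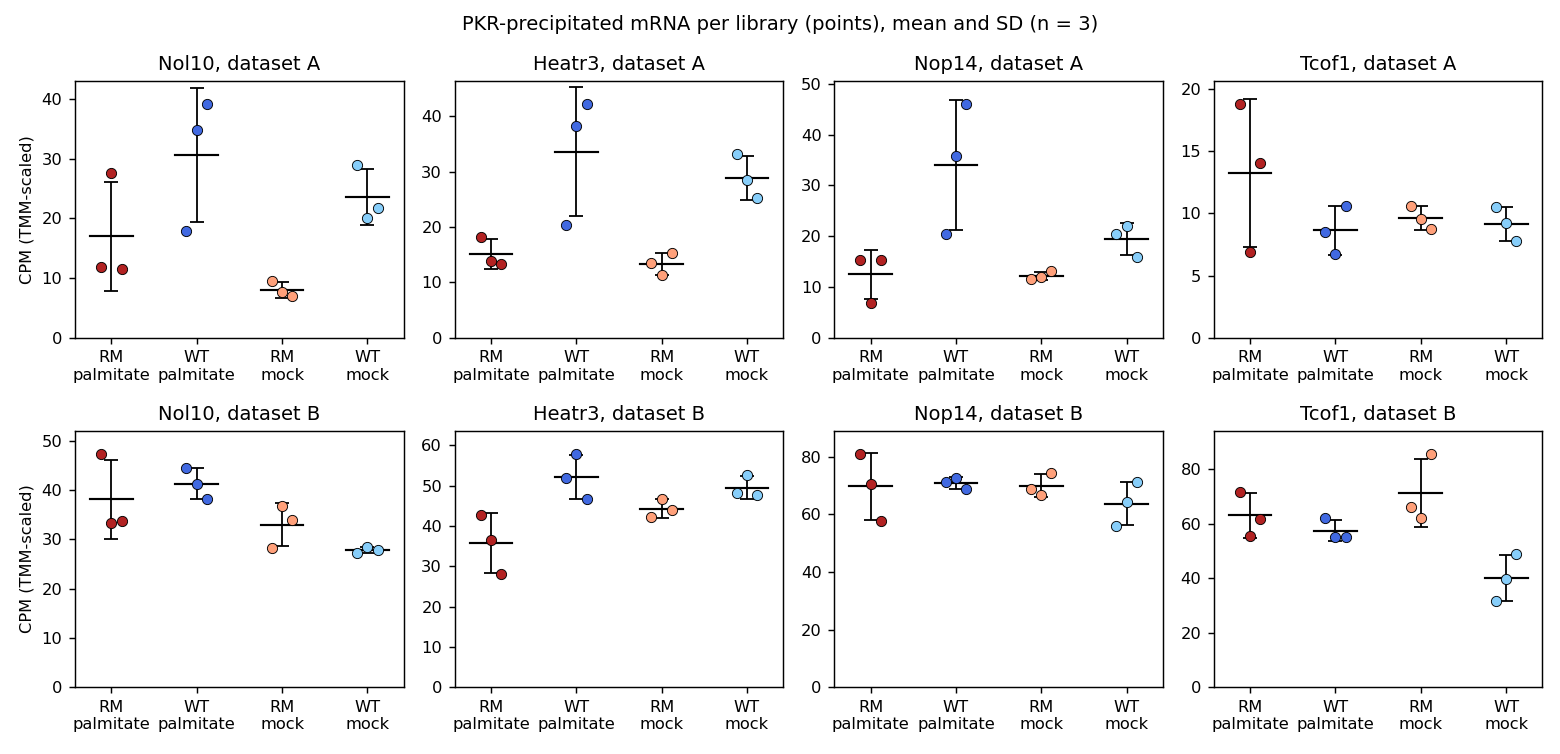
Level of Nol10, Heatr3, Nop14 and Tcof1 in each library of datasets A (upper row) and B (lower row), in CPM after TMM scaling, with the mean and SD of 3 libraries, RM beside WT cells under each treatment. Nol10 in mock libraries of dataset A lies at 6.97 to 9.57 CPM in RM and 20.1 to 29.0 CPM in WT cells, while in dataset B the mock ranges are 28.2 to 36.8 CPM in RM and 27.3 to 28.5 CPM in WT cells.

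The genotype difference itself differed between datasets for 4 of 47 mRNAs, close to the share of all features called, 7.88% (5.35% higher, 2.53% lower). Their RM over WT values, averaged over treatments, were higher in dataset B than in dataset A by 1.46 ± 0.23 for Nol10 (adjusted p = 0.000127), 0.97 ± 0.20 for Nop14 (adjusted p = 0.00268), 0.78 ± 0.20 for Pwp2 (adjusted p = 0.0144) and 0.74 ± 0.20 for Heatr3 (adjusted p = 0.0207). In dataset B Nol10 had 28.2, 36.8 and 34.0 CPM in RM mock and 27.3, 28.5 and 27.9 CPM in WT mock, and 47.3, 33.3 and 33.8 CPM in RM palmitate and 44.5, 41.2 and 38.3 CPM in WT palmitate. Nop14 in dataset B had 68.8, 66.7 and 74.4 CPM in RM mock and 56.1, 64.1 and 71.1 CPM in WT mock. Both pairs of mock groups overlapped, unlike those of dataset A.

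Whether palmitate acted differently on the mRNAs in RM and WT cells was tested as an interaction, and 0 of the mRNAs and 0.0% of all features passed the threshold in either dataset with edgeR. In dataset B 13 of 47 had an unadjusted p under 0.05, beside 2011 of 12466 features, and DESeq2 called 1. The share of all features called by DESeq2 is not given here. The median difference was -0.33 (RM minus WT), against -0.02 for all features, and 8 of 47 values were positive. It was -0.16 without RM palmitate replicates 2 and 3 and -0.65, against -0.35 for all features, with scaling by total counts. The smallest p was that of Rrp12 (-0.89 ± 0.20, adjusted p = 0.0898), followed by Polr1b (-0.59 ± 0.18, adjusted p = 0.14) and Nol6 (-0.59 ± 0.18, adjusted p = 0.142). In dataset A 2 of 46 had an unadjusted p under 0.05, Gnl3 (-1.09 ± 0.40, adjusted p = 0.981) and Tcof1 (0.83 ± 0.34, adjusted p = 0.981), beside 469 of 11328 features, the median was 0.04, against 0.00 for all features, and DESeq2 called 0.

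The palmitate effect differed between datasets past the threshold for 1 mRNA, where 2.72% of features were called (1.74% higher, 0.978% lower). Noc3l, a factor of large subunit precursors, had 41.3, 34.9 and 42.0 CPM in RM palmitate against 35.8, 40.9 and 38.6 CPM in RM mock, and 41.7, 38.0 and 51.8 CPM in WT palmitate against 36.8, 40.8 and 33.1 CPM in WT mock of dataset B. In dataset A it had 15.3, 0 and 12.3 CPM in RM palmitate against 8.05, 6.81 and 6.23 CPM in RM mock, and 13.1, 13.7 and 14.7 CPM in WT palmitate against 9.39, 7.17 and 4.67 CPM in WT mock. The groups overlapped in dataset B, and in dataset A they overlapped in RM cells through the shallow library. The difference, B minus A, was -0.79 ± 0.22 (adjusted p = 0.0488), a call that held in 9 of 30 alternatives (0.00914 to 0.214) and was lost without any of 19 libraries in turn. The median over the mRNAs was -0.25, against 0.02 for all features.

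A further 102 genes of ribosome biogenesis, not among the 47, were set beside them. Over both datasets 29 of 101 tested rose with palmitate and 0 fell, with a median of 0.16, and 83 of 101 values were positive. That is 28.7% called, beside 59.6% of the 47 mRNAs and 20.3% of all features. The smallest p values were those of Sdad1 (0.80 ± 0.09, adjusted p = 7.12e-07) and Afg2a (0.77 ± 0.09, adjusted p = 1.78e-06), both of large subunit maturation. Dataset B had 5 higher and 0 lower in RM cells, and in WT cells 17 rose and 1 fell, led in WT cells by Ppan (1.06 ± 0.17, adjusted p = 0.000901) and Afg2a (0.82 ± 0.14, adjusted p = 0.00123), the fall being Emg1, a methyltransferase of the small subunit (-0.47 ± 0.15, adjusted p = 0.046). The share called in dataset B was 4.95% in RM cells, below the 7.53% of all features. In WT cells it was 17.8%, near the 15.5% of all features. In dataset A 0 of 98 were called in RM cells, where 14 had an unadjusted p under 0.05, and 2 rose and 0 fell in WT cells. Of all features 0.477% and 0.335% were called in RM and WT cells of dataset A. Between genotypes 6 were higher and 19 lower in RM cells over both datasets. That is 24.8% called, close to the 25.5% of all features. The lowest was Gnl3l, a paralogue of Gnl3 (-1.28 ± 0.13, adjusted p = 1.53e-07), followed by Wdr3 (-0.65 ± 0.11, adjusted p = 0.000122), and the highest by p were Taf1d (0.72 ± 0.16, adjusted p = 0.00153), of the Pol I factor SL1, and Polr1h (0.65 ± 0.15, adjusted p = 0.00228), a Pol I subunit.

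Dataset C resolves the strand and has 1 library per group, so its values carry no replicate check. Antisense counts were 0.285% to 0.972% of the counts of the 47 mRNAs in the 4 libraries. Of these antisense counts, Tsr1 held 37 of 51 in RM palmitate, 32 of 43 in RM mock, 7 of 17 in WT palmitate and 3 of 5 in WT mock. Its sense counts in the same libraries were 476, 260, 35 and 27. Sense counts of the mRNAs were 0.153% of all counts in RM palmitate and 0.125% in RM mock, and 0.0224% in WT palmitate and 0.0159% in WT mock. In RM cells the log2 ratio of palmitate to mock had a median of 0.34 over the mRNAs and was positive for 36 of 47. The values were 0.17 and 64.0% for the 13219 features past a filter on low counts in the libraries compared. In WT cells the ratio had a median of 0.58 and was positive for 39 of 47, against 0.27 and 70.3% for 8830 such features. Counts of those features were summed over both strands, while the mRNAs were taken on the sense strand and without that filter. Pprc1 had 1404 and 451 sense counts in RM palmitate and RM mock, and 116 and 29 in WT palmitate and WT mock, log2 ratios of 1.43 and 1.91 in RM and WT cells. Wdr43 had 740 and 408 counts in RM palmitate and RM mock, and 77 and 33 in WT palmitate and WT mock, ratios of 0.65 and 1.15. The RM over WT ratio was positive for 47 of 47 mRNAs under either treatment, with medians of 2.66 with palmitate and 2.92 with mock. But of the 12400 and 12218 features past the same filter 95.9% and 96.2% were positive too, with medians of 2.28 and 2.37.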

How the data were processed

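RNA precipitated with PKR was sequenced in 24 libraries of datasets A and B and 4 of dataset C. Per the labels' protocols the RNA came from Trizol, and fragmented RNA entered a small RNA library kit. The submitters' processing notes name CASAVA 1.7.0 and 1.8.2, Novoalign and mm9. The counting tool, its use of strand and the authors' test are not stated there. Per the file headers and values, the authors deposited raw read counts for each feature in each library. The authors also deposited a log2 ratio per feature and a score read here as 10 times the negative log10 of a false discovery rate; the score was used only for the numbers credited to their table. A further 52 per-sample columns were left out.

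Counts were tested with edgeR 4.0.16 (limma 3.58.1, R 4.3.3): TMM scaling, the filterByExpr filter, robust quasi-likelihood fit, two-sided, Benjamini-Hochberg adjustment over all features tested (11328 in dataset A, 12466 in B, 12683 in both), threshold 0.05. Each dataset had its own fit of 12 libraries in 4 groups; averages and differences between datasets used 1 fit of all 24. Adjusted p values are from edgeR unless DESeq2 is named. Levels are CPM after TMM scaling. Gene positions (mm9) count from 1. Alternatives were DESeq2 1.42.0, DESeq-type size factors, total counts, no filter, a replicate block, and leaving out libraries. The fits were tested on simulated counts. Dataset C ratios add 1 count to each value.

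The members, lists and rules were chosen with earlier results of these data known. Named are, per comparison, members past the threshold, up to 8 with the smallest p in each direction, or the 3 smallest p where fewer than 3 passed, and Ncl, Npm1, Polr1a, Polr1b and Tcof1.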

Additional observations from a re-analysis of the deposited data

Results flagged for a closer look

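The difference between RM and WT cells was not the same in dataset B as in dataset A for 4 mRNAs, by a test of the difference itself (edgeR, adjusted over all features). The log2 differences, B minus A, were 1.46 for Nol10, 0.97 for Nop14, 0.78 for Pwp2 and 0.74 for Heatr3. Of all features 7.88% were called in this comparison, and 4 of 47 is close to that share. With scaling by total counts Nol10 was still called (adjusted p = 0.0139, the highest of its 30 alternatives), and Nop14, Pwp2 and Heatr3 were not (adjusted p = 0.17, 0.4 and 0.443, again the highest of their alternatives). The Heatr3 call also ended without RM palmitate replicate 3 of dataset A (adjusted p = 0.0597). The palmitate effect on Noc3l differed by -0.79 on the log2 scale, B minus A (adjusted p = 0.0488), a call that held in 9 of 30 alternatives (0.00914 to 0.214), and 1 of 47 is below the 2.72% of all features called. The datasets also differ in the share of counts from features of 200 bases or less and in the 2hr mark, and the part of either in these values was not tested.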

How the results depend on the processing

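Of the named mRNAs none reversed under any alternative run: 1138 of their values kept direction and side of the threshold, 164 lost a call and 8 gained one. The share of all features called under each alternative is not given here. The counts below therefore show how the calls moved, not whether the mRNAs changed more than other features. Scaling by total counts moved most counts of mRNAs called: to 0 and 0 for palmitate in RM and WT cells of dataset A, 8 in WT cells of dataset B, 15 over both datasets, 1 for RM over WT in palmitate and 1 in mock of dataset A, 10 in palmitate and 2 in mock of dataset B, 6 over both datasets, 1 for the interaction in dataset B, and 0 and 2 for the palmitate and genotype differences between datasets. For palmitate in RM cells of dataset B it gave 3, of which 1 was higher and 2 lower. It turned the sign of the median for RM over WT in palmitate of dataset A (0.19 in place of -0.18, with 0.39 for all features), for palmitate in RM cells of dataset B (-0.29 in place of 0.04, with -0.38 for all features) and for the genotype difference between datasets (-0.23 in place of 0.26, with -0.48 for all features). It moved the median to -0.42 for RM over WT in palmitate of dataset B (-0.36) and -0.65 for the interaction (-0.35), the values in brackets being those of all features.

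DESeq2 called 6 mRNAs for palmitate in WT cells of dataset A (its adjusted p for Gnl3 was NA) and 1 for the interaction in dataset B. DESeq-type size factors gave 5 in WT cells of dataset A. Without the filter there were 5 and 10 for palmitate in RM and WT cells of dataset A, 1 for the interaction and 1 for RM over WT in palmitate of dataset B. The replicate block gave 1 for palmitate in RM cells and 2 for RM over WT in palmitate of dataset A. Same-numbered libraries of different groups correlated at -0.209 to 0.299 in dataset A and -0.119 to 0.253 in B, over 0.1 in 4 and 3 of 18 pairs. Libraries with different numbers correlated at -0.283 to 0.257 in dataset A and -0.21 to 0.206 in B. With 3 libraries per group these values cannot settle whether the numbers pair the libraries. Without RM palmitate replicates 2 and 3 of dataset B there were 2 for palmitate in RM cells, 0 and 11 for RM over WT in palmitate and mock of dataset B, and 0 for the palmitate difference between datasets, with medians of 0.23 for palmitate in RM cells, 0.11 for RM over WT in palmitate and -0.16 for the interaction.

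Leaving out 1 library at a time gave 0 to 6 and 0 to 8 called for palmitate in RM and WT cells of dataset A, 3 to 8 and 14 to 21 in dataset B and 21 to 30 over both. RM over WT gave 0 to 7 in palmitate and 1 to 3 in mock of dataset A, 0 to 7 and 2 to 6 in dataset B, and 10 to 17 over both. The interaction in dataset B gave 0 to 8, and the palmitate and genotype differences between datasets gave 0 to 3 and 3 to 9. The medians were -0.05 to 0.17 for palmitate in RM and 0.34 to 0.51 in WT cells of dataset B, -0.24 to 0.01 for RM over WT in palmitate of dataset B, -0.08 to 0.20 for the interaction in dataset A and -0.45 to -0.26 in dataset B. The cause of these moves was not tested. The median mRNA had a mean of 54.2 counts in dataset A and 178 in dataset B.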
